A study of Mus musculus with 24 samples.

Results

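Microglia of mice injected with lipopolysaccharide (LPS) were compared between Serpine2 knockouts and their controls, 3 libraries a side, which are 6 of the 24 libraries of the series. The members were the libraries that the labels name as LPS microglia of either genotype, and all 53700 gene identifiers of their count tables were used, of which 22230 passed the filter on low counts and were tested. The series also holds saline-injected microglia (6 libraries), which are set beside the LPS comparison here, and astrocytes, which were not used. The knockouts were adult Serpine2-/- mice, and the controls were littermates that kept 1 or more functional Serpine2 alleles, so that the control group can hold heterozygotes as well as wild types. LPS, a cell wall component of Gram-negative bacteria, and saline were given to sibling pairs by injection, with no dose, route or time stated in the labels. Microglia came from the whole brain of perfused mice, dounced, cleaned on Percoll and bound to antibody-coated dishes. Nothing in the labels says how many animals went into a library, so the p-values measure the spread between these libraries.

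Serpine2 encodes glia-derived nexin, a secreted serpin that traps thrombin, urokinase and tissue plasminogen activator. Microglia are the resident macrophages of the brain. They sense LPS through Cd14 and Toll-like receptor 4, then raise cytokines, interferon-induced genes and antimicrobial proteins while genes of the resting state go down. Antimicrobial proteins of myeloid cells fall into those that macrophages make, such as lysozyme, and those packed into granules while neutrophils develop, such as cathelicidin and myeloperoxidase.

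No gene passed an adjusted p of 0.05 in the edgeR quasi-likelihood fit with Benjamini-Hochberg adjustment (0 of 22230, 0%), while DESeq2 called 1 gene, Serpine2 itself (0.0045%). With no filter on low counts edgeR called 19 of 40320 genes (0.0471%), Serpine2, Clec4e, Clec4d, Camp and Siglech among them. Of the 22230 genes, 335 had an edgeR p below 0.05 before adjustment (1.51%), 204 with higher values in the knockouts (0.918%) and 131 with lower values (0.589%). The 3 knockout values lay above all 3 control values in 560 genes (2.52%) and below them in 715 (3.22%). The log2 fold change, knockout minus control, was above 0 for 50.3% of the genes and had a median of 0.00. The median 95% interval, not adjusted for the number of genes, reached 0.68 to either side on the log2 scale. Differences smaller than about that size could not be resolved for a typical gene, and a call after adjustment needed a larger one. Serpine2, at a log2 fold change of -1.90, was not called by this fit. In this filtered edgeR fit no difference described below passed the adjusted test.

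The 6 libraries held 4506142 to 13621776 counts in genes, the least in LPS knockout 2. LPS knockout 1 stood apart from the other 5 libraries. It lay at -78.7 on the first principal component of log2 CPM (gene counts scaled to library size), which took 45.4% of the variance, while the others lay between -12.6 and 31.3. It was the highest of the 6 libraries in 31.3% of the genes and the lowest in 31.0%. Without it, 214 genes had an unadjusted p under 0.05, of which 95 were among the 335. Most log2 fold changes and list medians below are therefore also given without LPS knockout 1. Without LPS control 1, 155 genes had such a p, and without LPS knockout 3, 646 had one. LPS control 1 is labelled female but held 251 counts of the Y-linked Ddx3y and 73 of Xist, the pattern of the male libraries, so that by transcripts the controls were 2 males and 1 female and the knockouts 1 male and 2 females. Whether the sex label is wrong or the library was exchanged with another was not tested, so its place among the controls rests on its label.

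**Figure D1:**
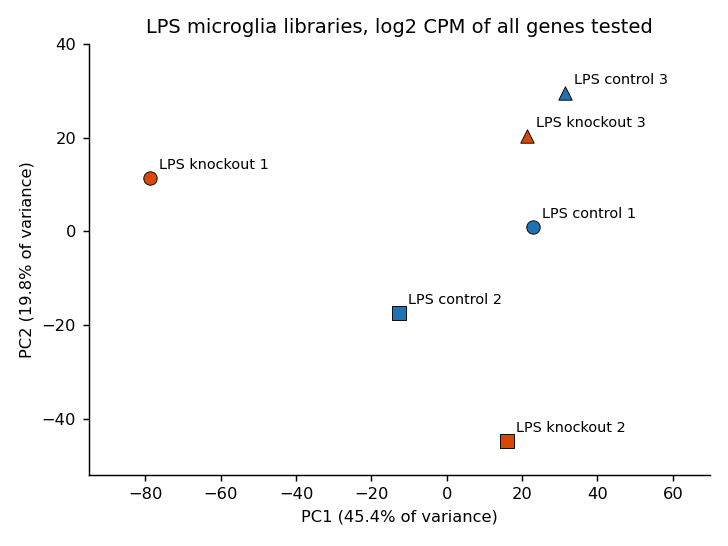
Position of the 6 LPS microglia libraries on the first (x axis, 45.4% of variance) and second (y axis, 19.8%) principal components of log2 CPM over the genes tested, blue for controls and orange for knockouts. LPS knockout 1 lies at -78.7 on the first component and the other 5 lie between -12.6 and 31.3, with controls and knockouts mixed.

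Markers of microglia were present in every library and all 12 of them had log2 fold changes below 0, where 50.3% of all genes lay above 0. Their median was -0.47, or -0.33 without LPS knockout 1. An unadjusted p under 0.05 (edgeR) with lower values was found in 1 of the 12, against 0.589% of all genes. Groups apart with lower values were found in 1, against 3.22% of all genes. In saline no marker of the 12 lay above 0 either (median -0.28), where 42.0% of all genes did. The summed level of the 12 markers after LPS was 2088 to 3778 CPM in the controls and 1789 to 3224 CPM in the knockouts, ranges that overlap. Markers of other cells were present as well. The 13 neuronal markers summed to 6988 to 8038 CPM in the controls and 6720.0 to 7074 CPM in the knockouts, the 9 oligodendrocyte markers to 2102 to 2798 CPM in the controls and 1966 to 2087 CPM in the knockouts and the 11 astrocyte markers to 825 to 889 CPM in the controls and 775 to 958 CPM in the knockouts. Markers of blood-borne myeloid cells were detected too. The 13 neutrophil markers summed to 693 to 1046 CPM in the controls and 427 to 1127 CPM in the knockouts, and the 9 monocyte markers tested to 193 to 203 CPM in the controls and 199 to 436 CPM in the knockouts, with LPS knockout 1 the highest library for 8 of the 9. The 9 markers of border macrophages tested summed to 134 to 190.3 CPM in the controls and 168 to 206 CPM in the knockouts. For the other 8 cell types listed, among them lymphocytes, endothelium and choroid plexus, the median log2 fold changes lay between -0.50 (erythrocyte) and 0.37 (choroid plexus and ependyma), or -0.79 and 0.51 without LPS knockout 1. With each LPS library left out in turn the erythrocyte median ran from -0.81 to 0.05. Sums over different genes are not corrected for gene length and give no cell proportions. No marker on these lists had 0 counts in all 6 LPS libraries. In these bulk libraries fewer cells of a type and less RNA per cell cannot be told apart.

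Serpine2 (chr1:79794197-79861180, minus strand, GRCm38) had 49.1, 68.4 and 88 CPM in the controls and 16.9, 18.7 and 19.3 CPM in the knockouts. Its mean was 68.5 ± 19.4 CPM in the controls and 18.3 ± 1.23 CPM in the knockouts (SD, n = 3 each), and the groups were well apart. The log2 fold change was -1.90 with a standard error (SE) of 0.27, and the adjusted p (Benjamini-Hochberg) was 0.118 by edgeR and 4.95e-07 by DESeq2. Without LPS knockout 1 it was -1.84. Reads were thus still counted to the gene in the knockouts, and the gene-level tables do not show to which exons. The saline libraries gave 62.2, 46.6 and 96.5 CPM in the saline controls and 20.1, 17.6 and 20.7 CPM in the saline knockouts, with a log2 fold change of -1.82.

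The proteases that the lost serpin inhibits, their receptors and their cofactors showed no common direction. Of 23 genes of the plasminogen and thrombin system 19 were tested, 10 with a log2 fold change above 0 and 9 below, with a median of 0.04 (0.04 without LPS knockout 1) against 0.00 over all genes. Plat, tissue plasminogen activator, was nearly level at 81.3, 80.3 and 84.8 CPM in the controls and 88.1, 78.1 and 89.2 CPM in the knockouts. Plau, the urokinase gene, had 7.84, 5.12 and 10.6 CPM in the controls and 3.88, 6.36 and 4.34 CPM in the knockouts, a log2 fold change of -0.71 ± 0.31 (SE; -0.56 without LPS knockout 1), and the groups overlapped at LPS control 2 and LPS knockout 2. Plaur, its receptor, Thbd, which binds thrombin on cell surfaces, and F2r, the main thrombin receptor, overlapped between the groups. Lrp1, the receptor that takes up serpin and protease complexes, had 979, 669 and 988 CPM in the controls and 516, 911 and 895 CPM in the knockouts, with LPS knockout 1 the lowest.

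Other members of the list were measured as follows. Anxa2, annexin A2, had 33.3, 52.7 and 67.7 CPM in the controls and 105, 67 and 84.1 CPM in the knockouts, with a log2 fold change of 0.74 ± 0.26 and 0.58 without LPS knockout 1. S100a10, which forms the annexin A2 tetramer that binds plasminogen, had 2.86, 7.05 and 6.23 CPM in the controls and 15.3, 5.94 and 12.5 CPM in the knockouts and a log2 fold change of 1.08 ± 0.39 (0.83 without LPS knockout 1). For both genes the groups overlapped through LPS knockout 2. F10, clotting factor X, had 4.6, 8.09 and 10.2 CPM in the controls and 18.5, 15.5 and 17 CPM in the knockouts, a log2 fold change of 1.16 ± 0.49 that stayed at 1.11 without LPS knockout 1, and its groups did not overlap. F13a1, the clotting factor XIII subunit that macrophages of the brain borders express, had 12.1, 14.9 and 11.3 CPM in the controls and 49.5, 16.1 and 13.5 CPM in the knockouts, and its log2 fold change of 1.05 was 0.22 without LPS knockout 1. F10 is also on the monocyte list and F13a1 on the border macrophage list given above, and the part of such cells in these values was not tested. F2, prothrombin itself, and St14, matriptase, were barely detected and lay below the controls without overlap, F2 at 2.34, 1.73 and 1.93 CPM in the controls and 1.13, 0.849 and 0.708 CPM in the knockouts and St14 at 2.34, 2.14 and 2.58 CPM in the controls and 0.251, 2.12 and 0.973 CPM in the knockouts. For St14 LPS knockout 2 and LPS control 2 nearly touched. Groups apart were found in 1 of the 19 genes with higher and 2 with lower values, against 2.52% and 3.22% of all genes. Of the 19 genes, 4 had an unadjusted p under 0.05 with higher values and 3 with lower values, against 0.918% and 0.589% of all genes. Without LPS knockout 1 the counts of genes with such a p were 0 and 1.

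Among the other serpins 14 of 23 were tested and 8 had a log2 fold change above 0, or 4 without LPS knockout 1 (median 0.10 and -0.12). Serpina3n, an astrocytic and macrophage serpin induced by inflammation, had 13.9, 13.1 and 19.4 CPM in the controls and 33.8, 22.3 and 23 CPM in the knockouts. All knockouts lay above all controls, and the log2 fold change was 0.78 ± 0.31, 0.57 without LPS knockout 1 and -0.34 in saline. Serpini1, neuroserpin, which like the lost protein inhibits tissue plasminogen activator, had 81.3, 76.7 and 65.4 CPM in the controls and 171, 67.9 and 66.4 CPM in the knockouts, where only LPS knockout 1 left the range of the controls. Serping1, the inhibitor of the first complement protease, and Serpinb6a overlapped.

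Genes of neutrophil granule proteins were split in direction after LPS, with Elane, Camp and Mpo the lowest, and had higher values throughout in saline. After LPS 8 of 19 tested had a log2 fold change above 0, against 50.3% of all genes, with a median of -0.21 (-0.30 without LPS knockout 1). The median ran from -0.31 to 0.01 as each LPS library was left out, the last without LPS control 3. Lower values with an unadjusted p under 0.05 were found in 5 of the 19, against 0.589% of all genes, and in 2 without LPS knockout 1. In saline all 19 lay above 0, with a median of 1.20, where 42.0% of all genes tested did. The neutrophil markers were higher in the saline knockouts as well, 12 of 13 above 0 with a median of 1.12. After LPS 7 of these 13 markers lay above 0, with a median of 0.04 (-0.14 without LPS knockout 1). No gene was called in saline by edgeR at an adjusted p of 0.05 (0%), where 351 had an unadjusted p below 0.05 and DESeq2 called Serpine2 alone. The 2 comparisons share no library.

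Camp, the precursor of the cathelicidin antimicrobial peptide, had 38.2, 34 and 38.8 CPM in the controls and 10.1, 28.2 and 10.7 CPM in the knockouts after LPS. All knockouts were below all controls, and LPS knockout 2 was the nearest to them. In saline it had 48, 38 and 55.5 CPM in the saline controls and 89, 139 and 127 CPM in the saline knockouts, with every knockout above every control. The log2 fold change was -1.21 ± 0.33 after LPS (-0.96 without LPS knockout 1) and 1.33 in saline. The knockout effect after LPS minus that in saline was -2.54 ± 0.46 (SE), with an adjusted p (Benjamini-Hochberg) of 1.00 by edgeR and 0.00212 by DESeq2, so that the call depended on the tool. Over all genes edgeR called none for this difference (0 of 22230, 0%). Before adjustment 251 genes had a p below 0.05 (1.13%). DESeq2 called Camp alone (0.0045%). Left out in turn, the 12 libraries gave a difference of -3.15 to -2.34 for Camp, and edgeR called it, at an adjusted p of 0.00688 (Benjamini-Hochberg), when LPS knockout 2 was left out. DESeq2 kept the call without LPS knockout 1, at an adjusted p of 0.0118.

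Ngp, neutrophilic granule protein, a cathelicidin relative near Camp on chromosome 9, followed the same order. After LPS it had 123, 138 and 136 CPM in the controls and 64.1, 113 and 42 CPM in the knockouts, and in saline 120.4, 133 and 159 CPM in the saline controls and 197, 329 and 384 CPM in the saline knockouts. Its groups did not overlap in either injection, lower in the knockouts after LPS (log2 fold change -0.86 ± 0.31, -0.78 without LPS knockout 1) and higher in saline (1.14). Elane, neutrophil elastase, was the third tested granule gene with both patterns, at low levels of 6.33, 4.29 and 4.62 CPM in the controls and 0.376, 3.82 and 0.619 CPM in the knockouts, with log2 fold changes of -1.90 ± 0.67 after LPS, -1.41 without LPS knockout 1 and 1.55 in saline. Across the 22230 genes the same reversal without overlap was seen in 24 (0.108%), among them these 3 of the 19 granule genes.

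Mpo, myeloperoxidase, which makes hypochlorous acid in primary granules, had 14.3, 8.85 and 11.1 CPM in the controls and 3.26, 11.2 and 3.19 CPM in the knockouts. LPS knockout 1 and LPS knockout 3 lay below every control and LPS knockout 2 among them. Its log2 fold change was -1.03 ± 0.43 (-0.74 without LPS knockout 1), and 1.54 in saline. Ltf, lactoferrin, which withholds iron from bacteria, had 80.9, 87.4 and 79 CPM in the controls and 40.2, 85.7 and 24.1 CPM in the knockouts, again with LPS knockout 2 at the level of the controls, and a log2 fold change of -0.74 ± 0.35 (-0.60 without LPS knockout 1). Ctsg (cathepsin G) and Prtn3 (proteinase 3), proteases of the primary granules, had log2 fold changes of -1.01 and -0.83 after LPS, -0.84 and -0.50 without LPS knockout 1, and 1.55 and 1.36 in saline. The difference between the injections was below 0 in 18 of the 19 genes, where 41.3% of all genes tested had a difference below 0. Of the 19, 12 had an unadjusted p under 0.05 for it (edgeR), against 1.13% of all genes. All 19 lay above 0 in saline, so these counts partly restate the saline difference.

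Other granule genes, also higher in all saline knockouts, overlapped after LPS. S100a8 and S100a9 encode the subunits of calprotectin. S100a8 had 177, 337 and 255 CPM in the controls and 335, 320.3 and 136 CPM in the knockouts. S100a9 had 99.7, 245 and 177 CPM in the controls and 409, 177 and 91.6 CPM in the knockouts. LPS knockout 3 was the lowest library for both. Lcn2, lipocalin 2, which binds bacterial iron carriers and is also made by other glia, had 115, 143 and 236 CPM in the controls and 284, 211 and 174 CPM in the knockouts. Mmp8 and Mmp9, collagenase and gelatinase of later granules, overlapped as well, again with LPS knockout 3 the lowest. LPS knockout 3 was the lowest of the 6 libraries in 14 of the 19 granule genes. Of the 19, 8 are also on the neutrophil marker list, whose summed level, given above, overlapped between the groups. Ly6g, a surface marker of mouse neutrophils that is no granule gene, had 2.34, 2.63 and 1.5 CPM in the controls and 1.13, 1.06 and 1.33 CPM in the knockouts, and Cxcr2, their chemokine receptor, 11.3, 25.2 and 18.1 CPM in the controls and 64.3, 37.3 and 11.5 CPM in the knockouts. The part of neutrophil number in the granule values was not tested.

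**Figure D2:**
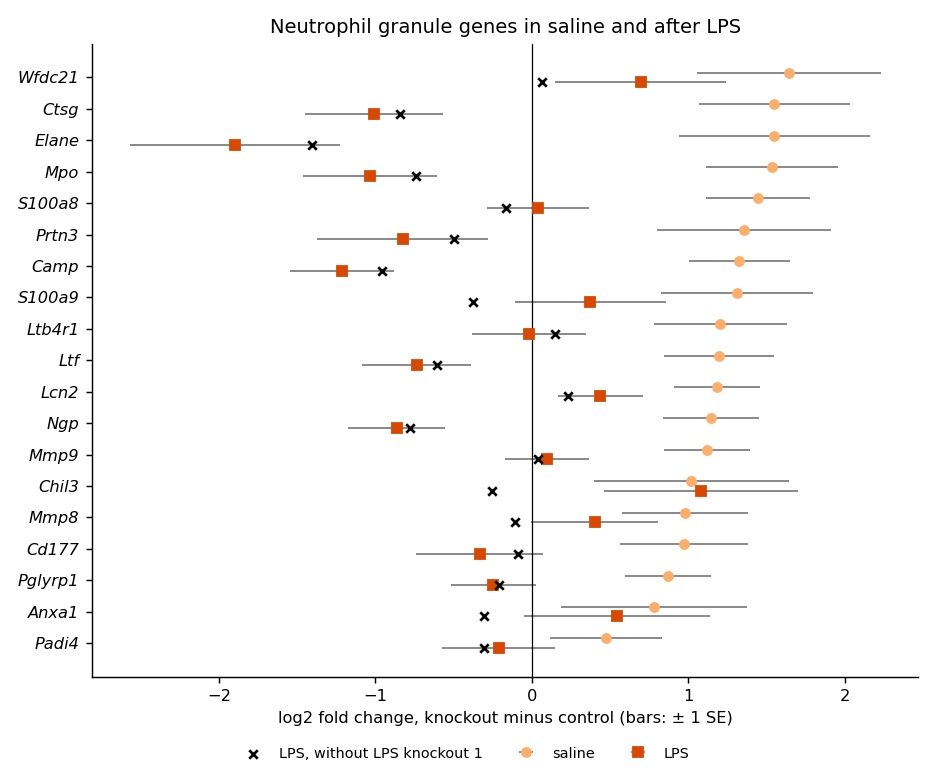
Log2 fold change, knockout minus control (x axis, bars ± 1 SE), of the 19 granule genes tested (y axis), with circles for saline, squares for LPS and crosses for LPS without LPS knockout 1. All 19 circles lie to the right of 0, while 11 squares lie to the left, Elane and Camp the farthest.

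Most genes listed as antimicrobial proteins of macrophages had higher values in the knockouts after LPS, though some, such as Lyz2, are not of macrophages alone. Of 16 tested, 13 had a log2 fold change above 0, with a median of 0.58, which became 12 and 0.27 without LPS knockout 1. Higher values with an unadjusted p under 0.05 were found in 4, against 0.918% of all genes, and in 2 without LPS knockout 1. In that library the monocyte markers were also at their highest, with a median log2 ratio of 1.23 to the LPS controls. In saline 8 of the 9 monocyte markers tested lay above 0, with a median log2 fold change of 0.88. The part of monocytes was not tested in either injection. Lyz2, the lysozyme of macrophages and neutrophils, had 725, 807 and 981 CPM in the controls and 1769, 1184 and 1412 CPM in the knockouts. All knockouts lay above all controls, and the same held in saline, at 211, 267 and 220.3 CPM in the saline controls and 357, 365 and 487 CPM in the saline knockouts. The log2 fold change was 0.80 ± 0.20 after LPS, 0.65 without LPS knockout 1 and 0.79 in saline, and the difference between the injections was 0.01. The adjusted p of the LPS comparison was 1.00 (edgeR, Benjamini-Hochberg). Reads of Lyz2 and its near copy Lyz1 may be split between them, so its level is uncertain.

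Hp, haptoglobin, which binds free haemoglobin and is stored in granules, had 32.3, 49.8 and 49.1 CPM in the controls and 76.7, 83.2 and 58.7 CPM in the knockouts after LPS and 16.1, 11 and 18.4 CPM in the saline controls and 22, 28.2 and 35.4 CPM in the saline knockouts. Knockouts were above controls without overlap in both injections, with log2 fold changes of 0.73 ± 0.25 (0.70 without LPS knockout 1) after LPS and 0.91 in saline. Genes with this order in both injections numbered 31 of 22230 (0.139%), and 14 had the knockouts below in both (0.063%), Serpine2 among them. Acod1, which makes the antibacterial metabolite itaconate, had 12.2, 17.6 and 37.9 CPM in the controls and 52, 28.2 and 43.9 CPM in the knockouts and a log2 fold change of 0.88 ± 0.37 (0.70 without LPS knockout 1). Lgals3, galectin 3, had 20.0, 19.1 and 34.8 CPM in the controls and 40.8, 29.3 and 47.7 CPM in the knockouts and a log2 fold change of 0.68 ± 0.29 (0.67 without LPS knockout 1). The highest control overlapped the knockouts in both genes. Saa3, an acute-phase serum amyloid, was among the most abundant, at 424, 817 and 1354 CPM in the controls and 1673, 1105 and 1009 CPM in the knockouts, and overlapped between the groups, and it has near copies that may share its reads. Mpeg1, perforin 2, had 129, 104 and 167 CPM in the controls and 146, 115 and 89.8 CPM in the knockouts.

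**Figure D3:**
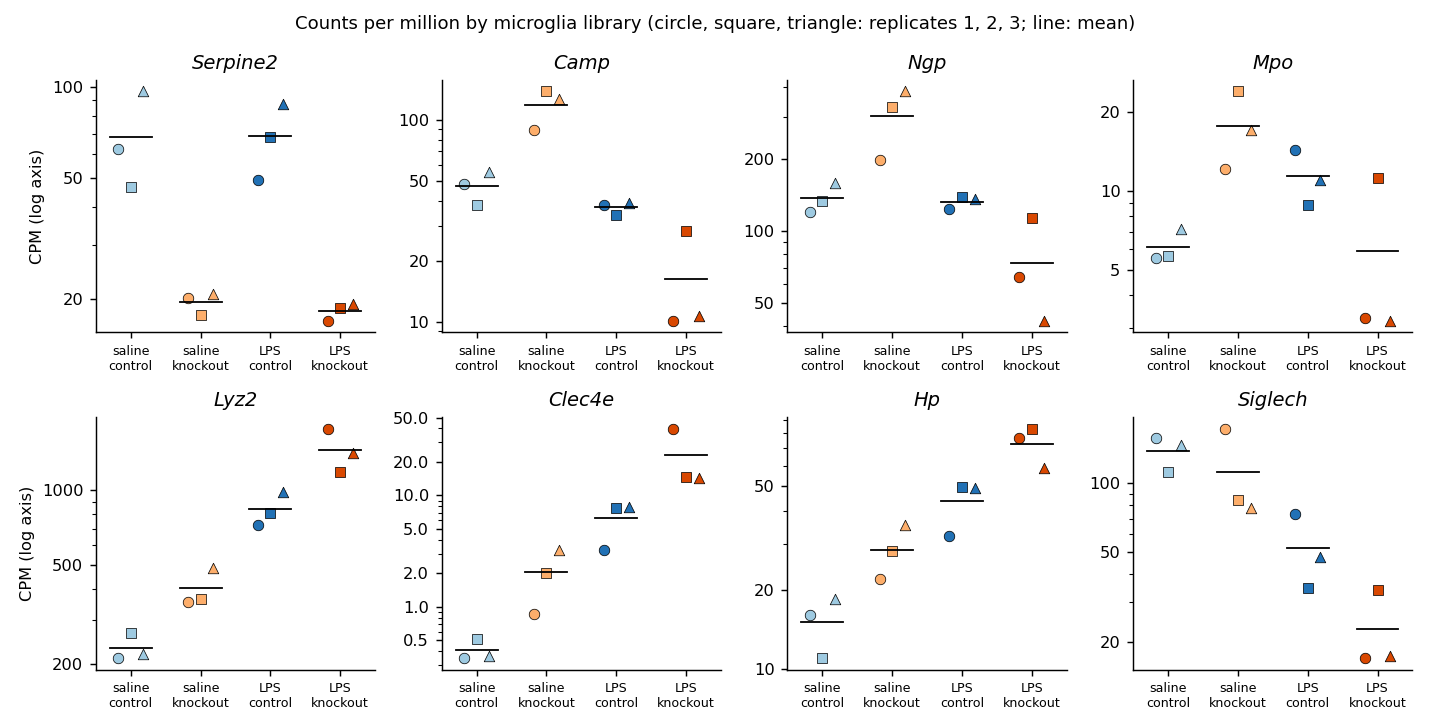
CPM on a log axis (y) of 8 genes in the 12 microglia libraries, grouped by injection and genotype (x), with circle, square and triangle for replicates 1, 2 and 3 and a line at the mean. Serpine2 is low in all 6 knockouts, Camp and Ngp lie above the controls in saline and below them after LPS, and Lyz2, Clec4e and Hp lie above the controls in both injections.

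Receptors that detect microbes were led by a pair of neighbouring C-type lectins. Clec4e (Mincle), which binds mycobacterial glycolipids and signals from dead cells, had 3.24, 7.74 and 7.95 CPM in the controls and 39.8, 14.6 and 14.3 CPM in the knockouts. Clec4d, its partner, had 0.98, 4.7 and 2.69 CPM in the controls and 19.3, 7.21 and 5.57 CPM in the knockouts. For both genes all knockouts were above all controls, with LPS knockout 1 by far the highest. The log2 fold changes were 1.87 ± 0.45 for Clec4e and 1.93 ± 0.54 for Clec4d, and 1.21 and 1.18 without LPS knockout 1. In saline Clec4e was near the limit of detection at 0.345, 0.513 and 0.363 CPM in the saline controls and 0.868, 2.03 and 3.22 CPM in the saline knockouts. The adjusted p was 1.00 for Clec4e and 1.00 for Clec4d (edgeR, Benjamini-Hochberg).

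The sequences just before the starts of the lectin pair and of the pair with lower values, Camp and Ngp, are shown because the members of each pair had their values in the same order. The genes and the motif below were chosen after the values were seen. They come from the RefSeq promoter table (GRCm38.p6), cut where the GENCODE M21 gene begins, and run toward the start. Capitals mark GAGGAA on either strand (TTCCTC), a form of the site bound by PU.1, an Ets factor of myeloid cells. The shorter Ets core GGAA was not marked and also occurs in the windows of Camp and Ngp.
Clec4e, chr6:123289872-123290121, minus strand: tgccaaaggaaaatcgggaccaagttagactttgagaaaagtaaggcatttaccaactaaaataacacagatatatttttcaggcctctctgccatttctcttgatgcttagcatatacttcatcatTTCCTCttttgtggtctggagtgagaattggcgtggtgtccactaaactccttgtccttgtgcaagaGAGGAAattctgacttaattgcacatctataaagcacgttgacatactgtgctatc
Clec4d, chr6:123261857-123262106, plus strand: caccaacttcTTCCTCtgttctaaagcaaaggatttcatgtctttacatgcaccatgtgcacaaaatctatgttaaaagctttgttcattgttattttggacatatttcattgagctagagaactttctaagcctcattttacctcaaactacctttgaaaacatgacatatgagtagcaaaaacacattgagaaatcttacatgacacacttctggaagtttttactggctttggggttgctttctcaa
Camp, chr9:109849618-109849706, minus strand: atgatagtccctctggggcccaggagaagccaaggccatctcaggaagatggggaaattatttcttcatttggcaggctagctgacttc
Ngp, chr9:110419558-110419746, plus strand: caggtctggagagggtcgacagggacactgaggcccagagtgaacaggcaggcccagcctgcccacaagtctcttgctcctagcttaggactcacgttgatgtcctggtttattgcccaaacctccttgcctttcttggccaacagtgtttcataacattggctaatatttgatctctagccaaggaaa
The hexamer occurred 2 times before Clec4e and 1 time before Clec4d in 250 bases, and 23.3% of 32851 promoter windows of that length hold it. It did not occur in the 89 bases of Camp or the 189 bases of Ngp, lengths at which 9.05% and 17.9% of windows hold it. These are letters in a window, and no binding was measured.

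Of 16 scavenger and related receptors 12 had a log2 fold change above 0, with a median of 0.43, and 0.07 without LPS knockout 1. Msr1, scavenger receptor A, had 11.2, 11.8 and 17.4 CPM in the controls and 65.1, 15.1 and 24.2 CPM in the knockouts, a log2 fold change of 1.38 ± 0.41 that came to 0.58 without LPS knockout 1. Marco, which takes up bacteria, had 31.5, 45.9 and 95.8 CPM in the controls and 188, 49.9 and 85.3 CPM in the knockouts, and the high control overlapped the knockouts. Cd5l, secreted by tissue macrophages, was the one member with all knockouts lower, at 14.2, 14.5 and 17.7 CPM in the controls and 13.4, 5.3 and 10.4 CPM in the knockouts. Of all genes, 3.22% had this order. LPS knockout 1 was the highest library in 10 of the 16. The monocyte markers, 9 of 9 with log2 fold changes above 0 and 0.09 as their median without LPS knockout 1 against 0.59 with it, moved with these genes in that library, and their part was not tested.

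Tlr4, the LPS receptor, had 9.57, 7.05 and 8.91 CPM in the controls and 17.8, 8.06 and 7.43 CPM in the knockouts, where LPS knockout 1 alone left the range of the controls. Cd14, which hands LPS to it, had 46.4, 38.7 and 50.6 CPM in the controls and 41.3, 56 and 43.4 CPM in the knockouts, and its groups overlapped. Across 20 genes of LPS sensing 17 had a log2 fold change above 0, with a median of 0.33, and 14 with a median of 0.11 without LPS knockout 1. Myd88, the adaptor of Toll-like receptors, had 9.35, 11.8 and 16.3 CPM in the controls and 18.7, 16.8 and 17.3 CPM in the knockouts, a log2 fold change of 0.50 ± 0.28 (0.46 without LPS knockout 1) with no overlap between groups. The formyl peptide receptors, which guide phagocytes to bacteria, had the largest log2 fold changes of the list. Fpr1 had 9.95, 17.3 and 21.1 CPM in the controls and 54.1, 22.3 and 26.3 CPM in the knockouts and a log2 fold change of 1.10 ± 0.41. Fpr2 had 4.6, 7.26 and 6.01 CPM in the controls and 20.3, 7.64 and 8.67 CPM in the knockouts and a log2 fold change of 1.04 ± 0.39. Neither gene's groups overlapped, though LPS knockout 2 lay close to the highest control in both. Without LPS knockout 1 the log2 fold changes of Fpr1 and Fpr2 were 0.61 and 0.47. Of the 20 genes, 3 had all knockouts higher, against 2.52% of all genes. Of the 7 NADPH oxidase subunits none had an unadjusted p under 0.05, against 1.51% of all genes (median 0.20, 0.09 without LPS knockout 1). Cybb, the catalytic subunit, had 35, 34.2 and 46.8 CPM in the controls and 110.5, 42.4 and 34.6 CPM in the knockouts, with LPS knockout 1 alone outside the controls.

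Cytokines did not move together. Of 19 listed only 10 had enough counts to be tested, 5 with a log2 fold change above 0 and 5 below (median -0.02, -0.10 without LPS knockout 1). Il1b had 7.01, 20.4 and 21.7 CPM in the controls and 32.8, 25.9 and 18.1 CPM in the knockouts, and Tnf had 3.02, 5.32 and 8.7 CPM in the controls and 5.51, 12.3 and 10.00 CPM in the knockouts. In both, LPS control 1 was the lowest and the groups overlapped. Osm, oncostatin M, had 1.36, 1.66 and 4.08 CPM in the controls and 0.877, 0.424 and 1.59 CPM in the knockouts, the smallest unadjusted p of the list. Il16 was the one cytokine gene with groups apart, slightly lower in the knockouts at 144, 140.1 and 133 CPM in the controls and 128, 128 and 122 CPM in the knockouts. Of all genes, 3.22% had groups apart in that direction. Among 16 chemokines 12 had a log2 fold change above 0, with a median of 0.18, and 0.18 without LPS knockout 1. Ccl6 and Ccl9 are related chemokines of macrophages. Ccl6 had 13.4, 25.4 and 39.7 CPM in the controls and 80.7, 25 and 45.9 CPM in the knockouts. Ccl9 had 30.6, 42.2 and 55.2 CPM in the controls and 95.8, 50.3 and 79.4 CPM in the knockouts. Their log2 fold changes were 0.96 ± 0.40 (0.47 without LPS knockout 1) and 0.82 ± 0.30 (0.63 without LPS knockout 1), with LPS knockout 2 inside the control range for both. Ccl2, Ccl5 and Cxcl10 overlapped. Among 21 NF-kB subunits and feedback inhibitors none had an unadjusted p under 0.05 and no groups were apart (median 0.16, 0.20 without LPS knockout 1). Of all genes, 1.51% had such a p, and 2.52% and 3.22% had groups apart with higher and lower values. Nfkbia, the inhibitor that NF-kB itself induces, had 14, 14.6 and 19.8 CPM in the controls and 22.5, 13.6 and 16.1 CPM in the knockouts.

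Interferon-stimulated genes had slightly higher values in the knockouts, 32 of 37 with a log2 fold change above 0 and a median of 0.29, or 25 with a median of 0.21 without LPS knockout 1. The median was 0.13 without LPS control 2, the lowest of the left-out values. In each gene the groups overlapped, where 2.52% of all genes had all knockouts higher and 3.22% all knockouts lower. LPS control 2 was the lowest library in 21 of the 37. Without LPS knockout 1, 48.0% of all genes tested had a log2 fold change above 0. Ifitm3, which blocks virus entry, had 120.5, 102 and 229.9 CPM in the controls and 221.5, 138 and 301 CPM in the knockouts. Ifih1, the RNA sensor MDA5, had 6.93, 5.39 and 6.66 CPM in the controls and 17.7, 7.64 and 6.9 CPM in the knockouts, and its log2 fold change of 0.77 ± 0.33 was 0.21 without LPS knockout 1. Slfn2 had 16.2, 22.3 and 34.2 CPM in the controls and 39.5, 28.8 and 41.9 CPM in the knockouts and a log2 fold change of 0.61 ± 0.28 (0.57 without LPS knockout 1). The 8 interferon-induced GTPases tested had no groups apart either, beside the same shares of all genes (median 0.09, -0.11 without LPS knockout 1).

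No gene of antigen presentation had groups apart. Over all genes 2.52% had all knockouts higher and 3.22% all knockouts lower, so that none in lists this short says little. Of 17 genes of MHC class I presentation 14 had a log2 fold change above 0, with a median of 0.11 (0.10 without LPS knockout 1), though reads of the class I heavy chains may be split among near-identical copies, and B2m, the light chain, had 444, 344 and 510.2 CPM in the controls and 733, 568 and 396 CPM in the knockouts. Of 13 class II genes 9 had a log2 fold change below 0, with a median of -0.25, and -0.09 without LPS knockout 1, in which library 9 of the 13 had their lowest value. H2-Ab1 had 38.8, 24.5 and 30.9 CPM in the controls and 21.5, 35.9 and 30.7 CPM in the knockouts, and Ciita, the regulator of class II transcription, had 17.3, 14.5 and 14.4 CPM in the controls and 8.02, 14.6 and 13 CPM in the knockouts.

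The 16 complement genes differed among themselves (median 0.08, 0.07 without LPS knockout 1). The chains of C1q, which starts the classical pathway, were lowest in LPS knockout 1 and next in LPS control 2. C1qa had 240.2, 101 and 285 CPM in the controls and 95.7, 106 and 106 CPM in the knockouts. C1qb had 1034, 587 and 1286 CPM in the controls and 565, 1003 and 836 CPM in the knockouts, and C1qc had 794, 426 and 1041 CPM in the controls and 393, 700.5 and 582 CPM in the knockouts. The log2 fold change of C1qa was -1.02 ± 0.59 (-0.96 without LPS knockout 1). C3, the central component, had 71.7, 68.1 and 84.1 CPM in the controls and 99.5, 117 and 86.2 CPM in the knockouts, with no overlap and a log2 fold change of 0.43 ± 0.23 (0.45 without LPS knockout 1), and 1.06 in saline. Receptors for complement and for IgG, such as Itgam, C3ar1 and Fcgr3, overlapped. The 6 Fc gamma receptor genes had no groups apart (median 0.13, 0.09 without LPS knockout 1). Of all genes, 2.52% had groups apart with higher and 3.22% with lower values.

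Genes of the homeostatic microglial state had lower values in the knockouts. Of 30 tested, 28 had a log2 fold change below 0, with a median of -0.31, and the same number, with a median of -0.28, without LPS knockout 1. With each library left out in turn the median ran from -0.53 to -0.15, the last without LPS control 3. Most did not exceed the spread between libraries. Lower values with an unadjusted p under 0.05 were found in 1 of the 30, against 0.589% of all genes. Groups apart, with lower values, were found in 2, against 3.22% of all genes. Siglech, a sialic acid receptor specific to microglia in the brain, had 73.3, 34.4 and 47.4 CPM in the controls and 16.9, 33.9 and 17.3 CPM in the knockouts. All knockouts were below all controls, though LPS knockout 2 and LPS control 2 nearly touched, and the log2 fold change was -1.20 ± 0.36 (-1.02 without LPS knockout 1, -0.32 in saline). Hpgd, which degrades prostaglandins, was the other, at 11.2, 7.26 and 7.09 CPM in the controls and 6.01, 5.3 and 4.16 CPM in the knockouts.

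P2ry12, the ADP receptor that steers microglial processes, had 84.5, 42 and 45.3 CPM in the controls and 47, 47.1 and 23.5 CPM in the knockouts. Tmem119, a microglial surface protein, had 279, 143 and 310.5 CPM in the controls and 129.7, 278 and 184 CPM in the knockouts. Csf1r, on whose signal microglia depend for survival, had 1315, 765 and 1431 CPM in the controls and 646, 1260.5 and 892 CPM in the knockouts, and Sall1, the transcription factor of microglial identity, had 53.3, 34.9 and 59 CPM in the controls and 26.9, 42.2 and 28 CPM in the knockouts. In each, LPS control 2 lay within the range of the knockouts and LPS knockout 2 within that of the controls. Cst3, cystatin C, among the most abundant of the list, had 1741, 892 and 1748 CPM in the controls and 717, 1205 and 934 CPM in the knockouts and a log2 fold change of -0.62 ± 0.43 (-0.44 without LPS knockout 1). In saline all 30 lay below 0, with a median of -0.24, where 42.0% of all genes tested lay above 0. Of the 12 microglia markers, 11 are also on this list.

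Disease-associated microglia genes, which rise around amyloid and dying cells, split evenly, 14 of 27 above 0, with a median of 0.02, or -0.05 without LPS knockout 1. Apoe had 263, 241 and 347 CPM in the controls and 251, 419.6 and 244 CPM in the knockouts and Trem2, the lipid receptor this state depends on, had 104, 58.6 and 128 CPM in the controls and 46.7, 103 and 63.7 CPM in the knockouts. Fabp5, a fatty acid carrier, was the one gene of the list with groups apart, lower in the knockouts at 21, 19.8 and 24.2 CPM in the controls and 14.2, 15.9 and 16.7 CPM in the knockouts. Of all genes, 2.52% had groups apart with higher and 3.22% with lower values. Of 17 genes of TGF-beta signalling, the pathway that keeps microglia in the resting state, 10 lay below 0 (median -0.04, -0.11 without LPS knockout 1). Tgfb1 itself had 35.7, 18.9 and 54.5 CPM in the controls and 16, 23.3 and 36.5 CPM in the knockouts, with a spread among the controls that held all but 1 of the knockouts, and Smad7, the inhibitor it induces, had 42.7, 30.8 and 46.1 CPM in the controls and 19.2, 27.2 and 30.4 CPM in the knockouts, lower without overlap. The 14 genes of macrophage growth factor signalling had no groups apart, beside the same shares of all genes (median -0.10, 0.00 without LPS knockout 1).

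Genes of cell division had higher values in the knockouts, and LPS knockout 1 stood highest. Of 23 genes of DNA replication 21 had a log2 fold change above 0, with a median of 0.33, and 20 with a median of 0.26 without that library. Mcm6, of the replicative helicase, had 12.4, 12.2 and 20.3 CPM in the controls and 42, 17.8 and 24.2 CPM in the knockouts, and Mcm3, another of its subunits, 13.9, 12.6 and 25.2 CPM in the controls and 29.4, 18.2 and 36.4 CPM in the knockouts. Their log2 fold changes were 0.92 ± 0.34 and 0.72 ± 0.31, and 0.52 and 0.70 without LPS knockout 1, and LPS knockout 2 lay below the highest control in both. Of 26 mitosis genes 23 lay above 0, with a median of 0.62, but 16 with a median of 0.09 without that library, which was the highest in 20 of the 26.

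Top2a, the topoisomerase that separates chromosomes, had 30.7, 21.9 and 38.4 CPM in the controls and 109.7, 31.4 and 45.1 CPM in the knockouts and a log2 fold change of 1.04 ± 0.40 (0.36 without LPS knockout 1). Mki67, the proliferation marker, had 33.2, 22.7 and 35 CPM in the controls and 79.9, 29.3 and 34.1 CPM in the knockouts, and its log2 fold change of 0.66 was 0.08 without LPS knockout 1. Tpx2, a spindle assembly factor, had 5.8, 6.08 and 9.24 CPM in the controls and 20.9, 9.97 and 10.5 CPM in the knockouts, and Ccna2, cyclin A2, had 10.0, 10.4 and 12.4 CPM in the controls and 24.2, 12.9 and 14.6 CPM in the knockouts. Both had all knockouts above all controls, with log2 fold changes of 0.98 ± 0.36 (0.56 without LPS knockout 1) and 0.67 ± 0.25 (0.36 without LPS knockout 1). Aurkb, the kinase that checks chromosome attachment, had 6.11, 5.88 and 9.02 CPM in the controls and 15.3, 8.06 and 12.4 CPM in the knockouts and a log2 fold change of 0.78 ± 0.29 (0.59 without LPS knockout 1). Of 13 mitochondrially encoded transcripts listed, 5 had 0 counts in all 6 LPS libraries, and the 7 tested were all highest in LPS knockout 1. Their median log2 fold change was 0.30 with this library and -0.57 without it. Monocyte and mitochondrial transcripts thus stood high in the same library as the mitosis genes, and their part in those values was not tested.

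**Figure D4:**
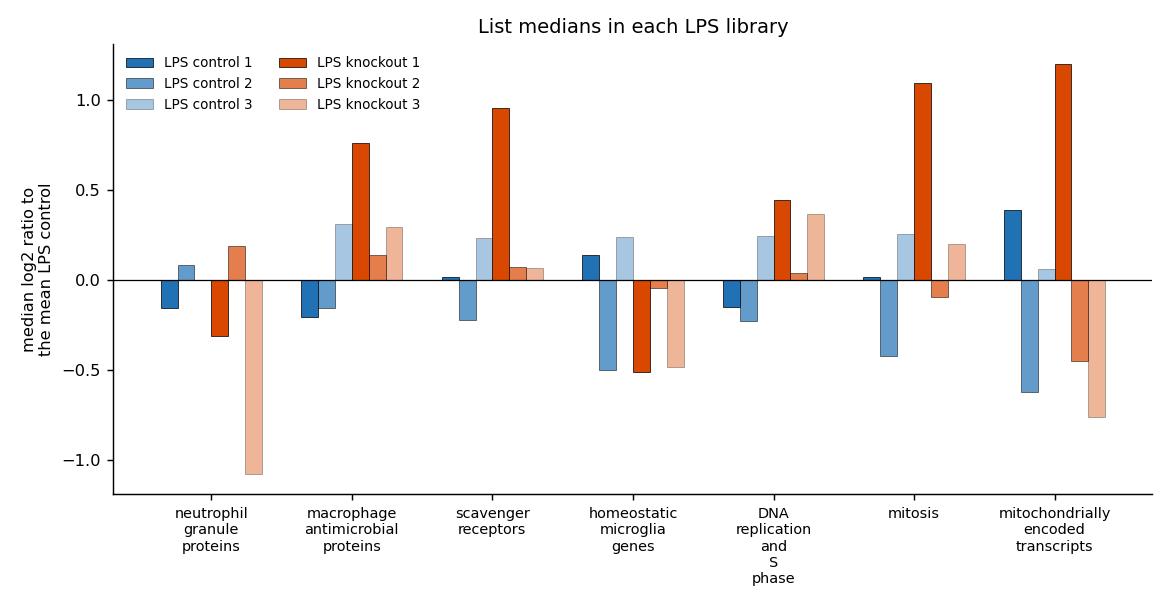
Median over the members of 7 gene lists (x axis) of the log2 ratio of a library's CPM to the mean of the LPS controls (y axis, with 0.5 CPM added), 1 bar for each of the 6 LPS libraries, blue for controls and orange for knockouts. LPS knockout 1 reaches 1.09 for mitosis and 1.20 for mitochondrial transcripts, while LPS knockout 3 reaches -1.07 for granule genes.

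Of 15 genes of iron handling 12 had a log2 fold change above 0 (median 0.26, 0.16 without LPS knockout 1), and none had groups apart. Of all genes, 2.52% had groups apart with higher and 3.22% with lower values. Hmox1, which breaks down haem, had 28.9, 47 and 86.9 CPM in the controls and 83.6, 56.2 and 85.1 CPM in the knockouts, and Fth1, ferritin heavy chain, had 635, 650.2 and 1142 CPM in the controls and 1326, 1023 and 1042 CPM in the knockouts. The immediate early genes, which also rise when tissue is dissociated, had no shared direction by genotype, 9 of 19 above 0 (median -0.05, -0.07 without LPS knockout 1), and none had groups apart. Fos had 37.4, 23 and 39 CPM in the controls and 34.6, 18 and 55.7 CPM in the knockouts, and Dusp1, a phosphatase, had 167, 106 and 169 CPM in the controls and 171, 77.6 and 220.2 CPM in the knockouts. LPS knockout 2 and LPS control 2 were the lowest libraries in both.

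**Figure D5:**
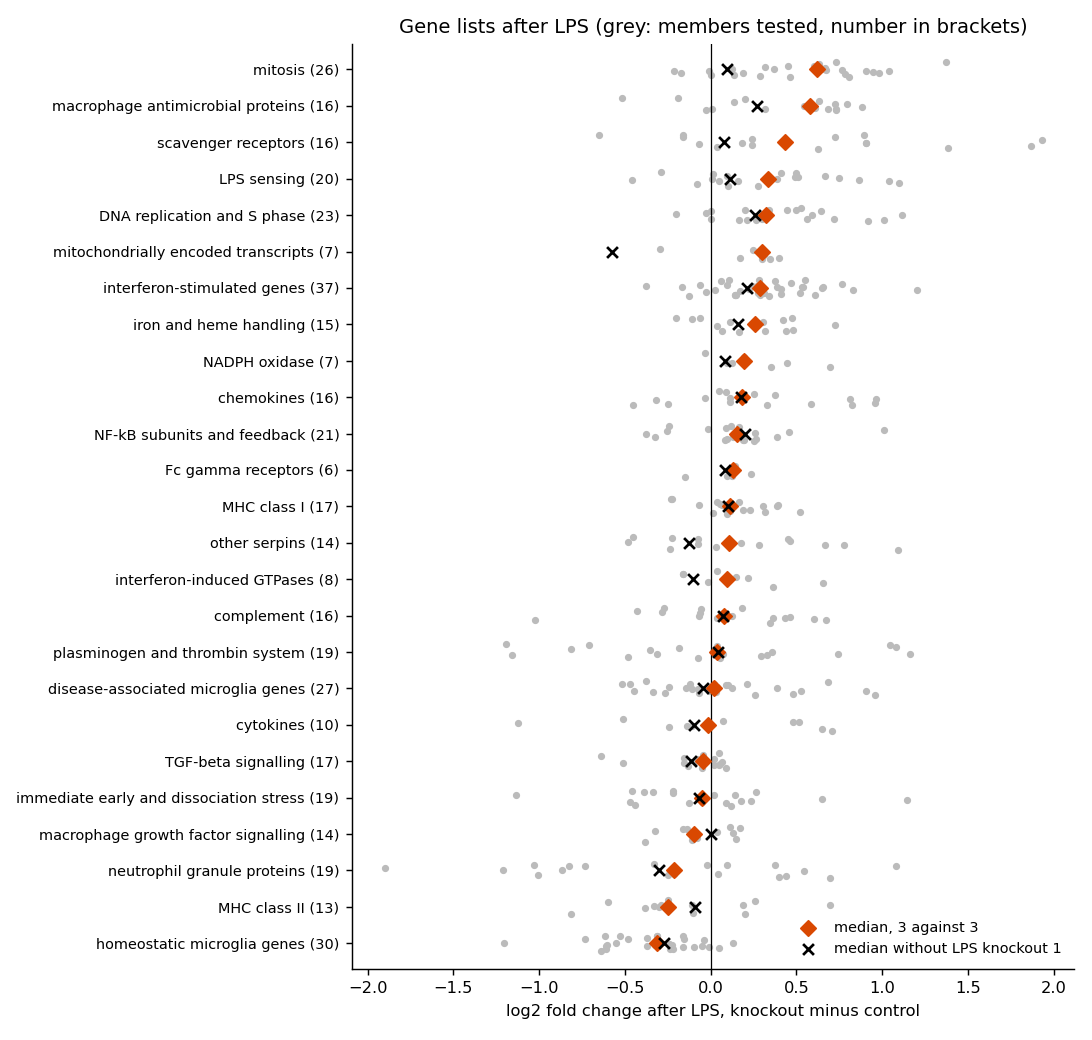
Log2 fold change after LPS, knockout minus control (x axis), of the tested members of 25 gene lists (y axis, grey points), with the list median as a diamond and the median without LPS knockout 1 as a cross. The homeostatic genes lie lowest, at -0.31, and the mitosis genes highest, at 0.62, where the cross is at 0.09.

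The remaining genes with the smallest unadjusted p and no overlap had roles outside these lists. Bst1, a surface enzyme of myeloid cells that hydrolyses NAD, had 3.54, 5.88 and 5.37 CPM in the controls and 24.6, 8.7 and 8.58 CPM in the knockouts, with a log2 fold change of 1.50 ± 0.48. Smpdl3a, a nucleotide-degrading phosphodiesterase of macrophages, had 25.5, 26.4 and 26.5 CPM in the controls and 63.1, 37.1 and 32.2 CPM in the knockouts and a log2 fold change of 0.76 ± 0.26. Srgn, the proteoglycan core that packs secretory granules, had 5.28, 9.4 and 7.52 CPM in the controls and 28.6, 11.7 and 9.91 CPM in the knockouts and a log2 fold change of 1.18 ± 0.43. In these 3 genes LPS knockout 1 was far above the other knockouts, and without it the log2 fold changes were 0.82, 0.42 and 0.55. Tgfbi, a matrix protein induced by TGF-beta, had 91.8, 95.4 and 156 CPM in the controls and 195, 166 and 190.0 CPM in the knockouts, Ezr, which links the membrane to actin, had 10.2, 15 and 19.7 CPM in the controls and 28.6, 20.6 and 27.3 CPM in the knockouts, and Ldha, lactate dehydrogenase A, had 129, 140.5 and 192 CPM in the controls and 226, 203 and 226 CPM in the knockouts. These 3 differed little without that library, at 0.65, 0.70 and 0.50 against 0.68, 0.78 and 0.51 with it.

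Lower in the knockouts were Ide, the insulin-degrading enzyme, at 126, 223 and 115 CPM in the controls and 98.7, 90.4 and 114 CPM in the knockouts, and Esrra, a nuclear receptor of mitochondrial metabolism, at 29.5, 28.8 and 38.7 CPM in the controls and 12.7, 22.7 and 25.9 CPM in the knockouts. Arl4c, a small GTPase, had 46.6, 34.2 and 44.2 CPM in the controls and 28.3, 25.9 and 31.3 CPM in the knockouts. Their log2 fold changes were -0.61 ± 0.26 (-0.58 without LPS knockout 1), -0.66 ± 0.30 (-0.39 without LPS knockout 1) and -0.54 ± 0.25 (-0.52 without LPS knockout 1). LPS control 2 stood far above the other controls for Ide, whose log2 fold change was -0.25 without it.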

How the data were processed

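The deposited files hold whole-number read counts per Ensembl gene, not normalized. STAR 2.6.0c and HTSeq (no version) are the aligner and counter, per the submitters' processing notes, which also name GRCm38 and GRCm39 without a role. Annotation and strand setting are not given in the sources used here, so overlapping and antisense genes cannot be told apart. Reads in no annotated gene, 66.5% to 73.1% of uniquely aligned reads in the LPS libraries, were left out. Coordinates are those of GENCODE M21 (GRCm38), found for 52147 of 53700 identifiers.

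All 12 microglia libraries were fitted together, 1 mean per group and no covariate, with edgeR 4.0.16 in R 4.3.3: TMM scaling, filterByExpr (minimum count 10, total 15) and the robust quasi-likelihood test, two-sided, with Benjamini-Hochberg adjustment over 22230 genes. CPM use the TMM factors. The SE is the log2 fold change divided by the root of F. Unadjusted p-values come from the same edgeR test. The fits were tested on simulated data. Alternatives were DESeq2 1.42.0, RLE scaling, other filters, sex as a covariate, a replicate block, the 6 LPS libraries alone and each library left out.

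Genes and lists were chosen with earlier results of these data known. Named genes are Serpine2, 10 a direction with the smallest p among genes of at least 8 CPM with no overlap (some of unclear role are not named), and from each list the 4 most abundant and the 2 with the smallest p, as far as described. Further members were named after their values were seen. In all 25 gene lists and 15 marker lists were used.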

Additional observations from a re-analysis of the deposited data

Results flagged for a closer look

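The effect of the knockout on Camp differed between the injections by a test of the difference itself in 1 of the 2 tools. DESeq2 gave -2.55 on the log2 scale for the effect after LPS minus that in saline, with an adjusted p of 0.00212 (Benjamini-Hochberg). edgeR gave -2.54 and an adjusted p of 1.00 (Benjamini-Hochberg). Camp was lower in 3 of 3 knockouts after LPS and higher in 3 of 3 in saline, each against every control of the same injection. This order was seen in 24 of 22230 genes (0.108%). Camp met a rule for named genes that required no overlap after LPS, so that order adds no support to the call.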

How the results depend on the processing

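The count of 0 genes called after LPS by edgeR held under RLE scaling, a minimum count of 50, sex as a covariate by labels or by transcripts, a replicate block (0 called) and the 6 LPS libraries alone. DESeq2 and the fit without LPS control 1 called 1, Serpine2 both times. Leaving out 1 LPS library at a time gave 0 to 1 calls and 155 to 646 genes at an unadjusted p under 0.05, 155 without LPS control 1 and 646 without LPS knockout 3. With no filter on low counts 19 of 40320 genes were called (0.0471%), among them Serpine2, Clec4e, Clec4d, Camp, Siglech, Msr1, C1qa and Elane beside Xist and the Y-linked Ddx3y, Kdm5d and Uty. The cause was not tested. The log2 fold change of Serpine2 passed the threshold at -1.90 by DESeq2 and at -1.92 with no filter, and ranged from -2.09 to -1.67 when 1 library was left out, passing at -2.09 without LPS control 1 (adjusted p 0.0425 by edgeR, Benjamini-Hochberg). In saline DESeq2 called 1 gene, Serpine2, and leaving out 1 saline library gave 0 to 1. For the difference between injections DESeq2 called 1 gene, Camp, also 1 without LPS knockout 1, and leaving out 1 of the 12 libraries in edgeR gave 0 to 1. Leaving out libraries in saline and for this difference was chosen after seeing the data. The genes whose fold changes after LPS are printed kept their sign in every alternative that tested them. They were chosen with the values known, so that this gives no support to them. Of the 141 genes chosen by rule, 43 changed sign in 1 or more alternatives, S100a9, Serpini1 and Lrp1 among them. Replicate numbers were not taken as pairs in the main fit. Same-numbered control and knockout libraries had correlations of their deviations of -0.167, -0.0949 and 0.324 after LPS. In saline these were 0.442, -0.0895 and -0.112. With 3 libraries a group such correlations cannot decide whether the numbers pair the samples. The sex labels of same-numbered control and knockout libraries match throughout in both injections. By transcripts LPS control 1 has the male pattern and LPS knockout 1 the female one. Whether the numbers mark sibling pairs was not tested, so a pairing may have been left out of the main fit. Of the 25 list medians 18 were above 0, and 15 without LPS knockout 1, and all 25 moved, under 1 or more alternatives, by more than 1 SD of their values with each LPS library left out. Apart from LPS knockout 1, leaving out 1 library brought some log2 fold changes nearer to 0 by over 1.5 times: Ide to -0.25 (LPS control 2), Plau to -0.43 (LPS control 3), Acod1 to 0.58, Myd88 to 0.32 and Slfn2 to 0.39 (LPS control 1), and Ltf to -0.40, Prtn3 to -0.45 and Mcm3 to 0.47 (LPS knockout 3). LPS knockout 2, with 4506142 counts, is the least precise library for genes of a few CPM.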
